A study of Mus musculus with 23 samples.

Results

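The interferon-stimulated genes are a set of 39 genes that cells switch on when an interferon binds its receptor, listed by name and taken from the 48895 genes of the count table. All 39 were found in the table, and all 39 had enough counts to be tested in each comparison. Libraries of poly(A) RNA were made from 23 tissues of male BALB/c mice. The mice were aged 4 to 6 weeks when divided into groups, and tissues were taken 3 weeks after the injection. Control liver (n = 5) came from sham-operated mice given serum-free medium alone. Pre-metastatic liver (n = 9) and primary tumor (n = 9) came from 9 mice whose cecal serosa had been injected with CT26 cells, a colon carcinoma line derived from the same mouse strain, and each of these mice gave both tissues 3 weeks later. The labels name no transgene and no drug treatment in any group, and each library is a different tissue sample, named here by its group and mouse (C1, C4, C5, C6 and C7 for control, M1 to M12 for tumor-bearing mice). RPKM denotes reads per kilobase of gene, scaled to the library total, and each group is described by its lowest, median and highest library, except that the 5 control livers are given one by one in the order C1, C4, C5, C6, C7.

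Interferons are secreted proteins made in response to foreign or misplaced nucleic acid (the type I family, interferon beta among them) or by activated T and NK cells (interferon gamma). Their receptors signal through Janus kinases to STAT proteins. A complex that holds STAT2 and IRF9 binds the interferon-stimulated response element (ISRE) in the promoters of antiviral genes, and STAT dimers bind the gamma-activated sequence (GAS), so that both kinds of interferon induce overlapping sets of genes. In liver, hepatocytes, Kupffer cells and infiltrating leukocytes can all express them.

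The totals were 44587556 to 79773163 counts per library. The liver libraries held 34946 to 77447 RPKM in sum over 7 hepatocyte marker genes, against 7.31 to 299.5 RPKM in the tumors, where mice M10 and M12 were highest. Over 8 epithelial and intestinal markers the tumors had a median of 12.4 RPKM in sum, less than any liver (195 to 324 RPKM). Among the livers, 1 control stood apart in the genes described here: mouse C1 had the lowest RPKM of its group for 35 of the 39 genes. The share of all genes for which C1 was lowest was not counted. The labels give no batch. The levels of 6 circadian clock genes divided the livers into 9 of an early and 5 of a late phase. The late livers were C7, M1, M2, M10 and M12. An index of these genes was -2.35 to -0.102 in the early livers and 2.05 to 2.92 in the late pre-metastatic livers. C7, at 0.981, lay between them, so its phase is uncertain. Each comparison was also made among early-phase mice alone.

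Promoter sequence is shown because interferon acts on such genes through elements upstream of their start sites. RefSeq promoter windows of GRCm38.p6, running from 250 bases before to 50 bases after each start site, were matched by symbol to 28 of the 39 genes. The ISRE core, searched as TTTCNNTTTC on both strands, lay in the window of 17 of these 28 genes (60.7%), against 3.99% of all 27025 genes with a window (3.44% of 32851 windows). GAS, searched as TTCNNNGAA, which reads the same on both strands, lay in 11 of the 28 (39.3%), against 9.55% of all genes. Both motifs were found in 6 of the 28 (21.4%), against 0.540% of all genes. Among the 18 matched genes that were higher in pre-metastatic than in control liver by edgeR's test, 11 had an ISRE core and 4 had neither motif, and among the 10 that did not pass it, 6 had a core and 2 had neither motif. The other 11 genes had no window and were not searched. A match describes the letters only and is not evidence of a bound site. The stretches that follow are shown for genes on which the results turn: *Isg15*, whose cores overlap in a row, *Ifit1* and *Ifit3* with a pair of separate cores, *Oas3*, the largest rise in liver, *Oas1a*, whose values are described separately, *Gbp2*, the neighbours *Igtp* and *Irgm2*, and *Stat2*, which holds a core and did not pass the test. Each is written 5′ to 3′ on the strand of its gene, upstream of the RefSeq start site of its window, with ISRE cores in capitals. The count table starts *Oas1a* and *Ifit3* further upstream than RefSeq, so that the stretch of *Ifit3* and part of that of *Oas1a* lie inside the gene as the table gives it.
Isg15 (chr4:156200855-156200916, minus strand, 3 overlapping cores): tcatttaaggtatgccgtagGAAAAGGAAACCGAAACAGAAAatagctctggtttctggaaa
Ifit1 (chr19:34640765-34640833, plus strand, 2 cores): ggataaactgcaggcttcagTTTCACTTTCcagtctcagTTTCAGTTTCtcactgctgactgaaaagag
Ifit3 (chr19:34583353-34583436, plus strand, 2 cores): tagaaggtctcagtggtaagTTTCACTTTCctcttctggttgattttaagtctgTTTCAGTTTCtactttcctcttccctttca
Oas3 (chr5:120777705-120777754, minus strand, 1 core): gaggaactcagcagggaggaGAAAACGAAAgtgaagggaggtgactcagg
Oas1a (chr5:120907526-120907565, minus strand, 2 overlapping cores): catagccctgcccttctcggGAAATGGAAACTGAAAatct
Gbp2 (chr3:142620584-142620633, plus strand, 1 core): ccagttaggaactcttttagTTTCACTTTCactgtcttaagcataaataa
Igtp (chr11:58199502-58199551, plus strand, 1 core): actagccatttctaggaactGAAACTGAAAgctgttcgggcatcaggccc
Irgm2 (chr11:58214893-58214942, plus strand, 1 core): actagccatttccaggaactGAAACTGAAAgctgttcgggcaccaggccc
Stat2 (chr10:128270256-128270305, plus strand, 1 core): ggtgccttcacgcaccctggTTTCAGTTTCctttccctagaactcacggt

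The comparison of pre-metastatic with control liver asks how the liver of a tumor-bearing mouse differs from that of a sham-operated one. In it, 26 of the 39 genes were higher and 0 lower (edgeR quasi-likelihood test on counts with TMM scaling, adjusted p under 0.05 over all genes). Of all 16987 genes tested, 17.7% were higher and 13.3% lower. All 39 log2 fold changes of the set were above 0, so none was lower at an unadjusted p under 0.05 either, and DESeq2 and limma also called 0 lower. The median log2 fold change of the set was 1.05, beside 0.01 over all genes. For 10 of the 39 genes, every pre-metastatic liver lay above every control liver in RPKM, which held for 4.85% of all genes. Among the early-phase livers alone 28 genes were higher, and with the phase as a covariate 27. The first of these fits leaves out C7, the control with the highest median level of the set. With library totals alone in place of TMM, 23 were higher, the calls of *Ifi35*, *Mx1* and *Eif2ak2* being lost.

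**Figure D1:**
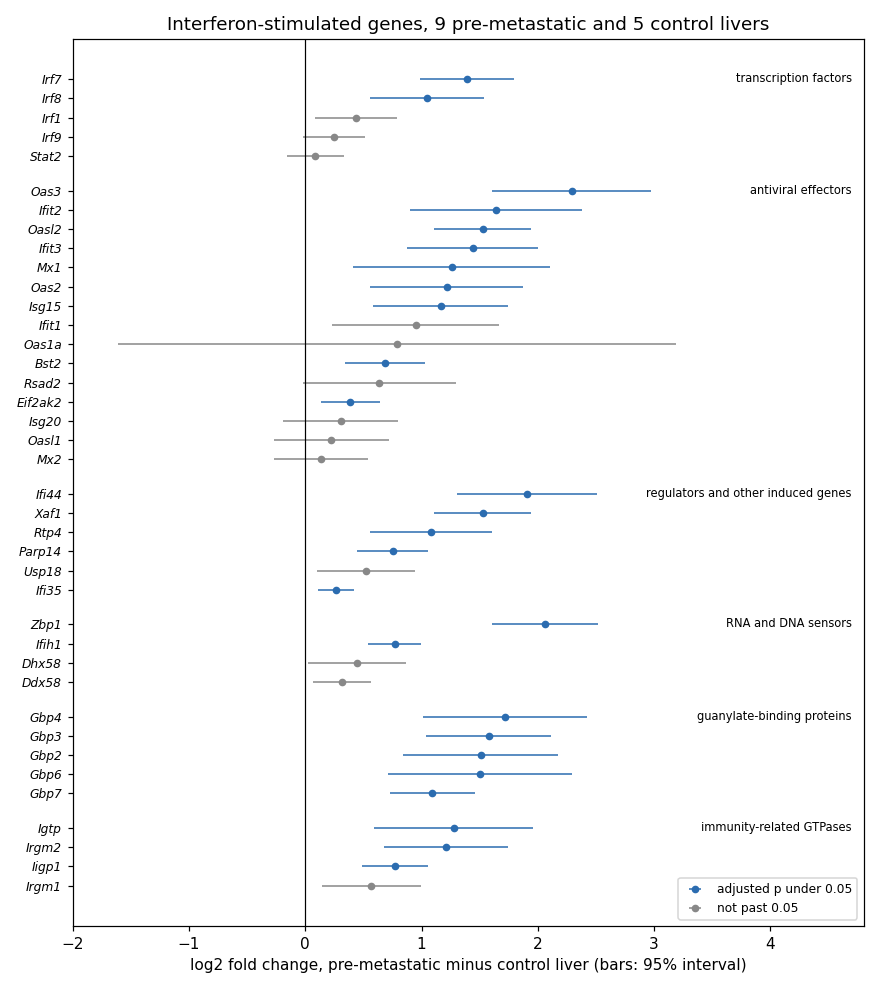
Each point is the log2 fold change of an interferon-stimulated gene between 9 pre-metastatic and 5 control livers (horizontal axis, edgeR with TMM), grouped by role, and the bars are 95% intervals from its standard error. All 39 points lie above 0; the 26 in blue passed an adjusted p of 0.05, from *Oas3* at 2.29 to *Ifi35* at 0.27, and *Oas1a* has the widest bar.

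Markers of immune cells moved with this comparison. The summed RPKM of 5 leukocyte markers was 18.7 to 34.3 in control and 26.9 to 57.8 in pre-metastatic liver, with 4 of 5 markers higher by the same test. That of 7 Kupffer cell and macrophage markers was 63.1 to 132 and 126 to 377 (6 of 7 higher), and that of 4 monocyte markers was 0.674 to 1.01 and 1.84 to 6.84 (3 of 4 higher). The B cell markers reached 0.572 to 1.26 and 0.595 to 8.32 (3 of 4 higher), the neutrophil markers 6.55 to 23.3 and 7.12 to 146 (4 of 7 tested), and the T and NK cell markers 1.38 to 4.72 and 1.63 to 17.8 (1 of 8 tested). The plasmacytoid dendritic cell markers were at 0.0449 to 0.150 RPKM in 4 control livers, at 6.60 RPKM in C1 and at 0.0853 to 1.40 RPKM in pre-metastatic liver. Of these 4 markers, 1 had enough counts to be tested, and it did not pass. In whole tissue, more or fewer cells of a type and more or less RNA per cell cannot be told apart, and the part of these cell types in the values below was not tested.

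Among the transcription factors, 2 of 5 passed. *Irf7* (chr7:141263183-141266499 in mm10), the factor that amplifies type I interferon production, was at 5.19, 9.50, 7.66, 10.7 and 11.4 RPKM in the control livers and at 12.8, 22.2 and 32.5 RPKM (lowest, median, highest) in pre-metastatic liver. The groups did not overlap, and the log2 fold change was 1.39 ± 0.21 (SE; edgeR adjusted p = 0.000229). *Irf8*, a factor of the macrophage and dendritic cell lineages, was at 0.974, 2.37, 3.10, 1.78 and 1.78 RPKM in control and at 2.25, 3.37 and 6.41 RPKM in pre-metastatic liver. Control mice C4 and C5 lay within the range of the tumor-bearing mice, and the log2 fold change was 1.05 ± 0.25 (adjusted p = 0.00546). The call of *Irf8* was kept in 7 of 8 alternatives and when any single library was left out. *Irf1*, a factor induced by interferon gamma, was at 6.42, 7.88, 10.4, 6.71 and 11.9 RPKM in control and at 7.84, 10.9 and 19.7 RPKM in pre-metastatic liver (log2 fold change 0.43 ± 0.18, adjusted p = 0.0782). *Irf9* was at 9.38, 13.4, 11.6, 14.7 and 18.0 RPKM in control and at 9.76, 14.1 and 21.1 RPKM in pre-metastatic liver. *Irf9* and *Stat2*, which bind the ISRE in 1 complex, gave the smaller differences among the factors: 0.24 ± 0.14 for *Irf9* (adjusted p = 0.185) and 0.09 ± 0.13 for *Stat2* (adjusted p = 0.637). *Stat2* was at 15.1, 19.2, 18.0, 21.2 and 20.9 RPKM in control and at 15.4, 18.2 and 27.5 RPKM in pre-metastatic liver. The ranges overlapped, with M5 and M7 above every control.

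The sensors of foreign nucleic acid also divided. *Zbp1*, a sensor of Z-form RNA and DNA that can start necroptosis (chr2:173206612-173218922), was at 2.05, 3.39, 2.07, 2.84 and 2.93 RPKM in control liver and at 5.46, 9.82 and 17.9 RPKM in pre-metastatic liver. Every tumor-bearing mouse was above every control, and the log2 fold change of 2.06 ± 0.23, a 4.17-fold rise, had the smallest adjusted p of the set (4.46e-05). *Ifih1*, which encodes the long RNA sensor MDA5, was at 3.52, 4.39, 3.94, 4.39 and 4.17 RPKM and at 4.53, 6.57 and 8.28 RPKM, again without overlap (0.77 ± 0.12, adjusted p = 0.000271). Its relatives *Ddx58* (RIG-I; 0.31 ± 0.13, adjusted p = 0.0699) and *Dhx58* (LGP2; 0.45 ± 0.22, adjusted p = 0.132) did not pass.

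Of the 15 antiviral effectors, 9 were higher. *Oas3*, an oligoadenylate synthetase that arms the ribonuclease RNase L, rose most of all 39 genes. It lies in a cluster of its family at chr5:120753098-120777659. It was at 0.0983, 0.171, 0.0848, 0.311 and 0.220 RPKM in control liver (24 to 75 counts) and at 0.423, 0.798 and 1.29 RPKM in pre-metastatic liver (89 to 337 counts). The groups did not overlap, and the log2 fold change was 2.29 ± 0.35 (adjusted p = 0.000271), a 4.89-fold rise. *Ifit2* (chr19:34550549-34576534), whose product binds viral RNA, was at 0.150, 0.529, 0.268, 0.545 and 0.594 RPKM and at 0.551, 1.21 and 2.26 RPKM. The lowest tumor-bearing mice, M7 and M12, fell within the control range, and the log2 fold change was 1.64 ± 0.38 (adjusted p = 0.00439). The synthetase-like gene *Oasl2* rose by 1.53 ± 0.21 without overlap (adjusted p = 0.000148). *Ifit3* (1.44 ± 0.29), *Oas2* (1.22 ± 0.33), the ubiquitin-like modifier *Isg15* (1.16 ± 0.30), the virion tether *Bst2* (0.69 ± 0.17) and the RNA-activated kinase *Eif2ak2* (0.39 ± 0.13) passed as well, and so did the dynamin-like *Mx1* (1.26 ± 0.43, adjusted p = 0.0368), on 8 to 61 counts in control liver. *Mx1* and *Eif2ak2* each lost the call when any of 6 single libraries was left out, C1, C4, C5, M4 and M5 for both, M1 for *Mx1* and M8 for *Eif2ak2*. About 51.2% of the 50-base windows of the *Ifit3* transcripts also occur in its copy *Ifit3b*, so the counts of *Ifit3* may have lost or gained reads, which was not tested. The effectors that did not pass were *Ifit1* (0.95 ± 0.37, adjusted p = 0.0614), *Rsad2* (viperin; 0.64 ± 0.33, adjusted p = 0.162), *Isg20* (an exonuclease; 0.30 ± 0.25), *Oasl1* (0.22 ± 0.25), *Mx2* (0.14 ± 0.21) and *Oas1a*. The table types *Mx1* and *Mx2* as transcribed pseudogenes. *Isg15*, *Ifit1*, *Oas2* and *Eif2ak2* overlap a gene on the other strand, as do *Ifih1*, *Dhx58*, *Gbp2*, *Gbp3*, *Ifi35* and *Usp18*, and since the strand setting of the counting is not given in the sources used here, reads of such partners cannot be told apart.

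All 5 guanylate-binding proteins, GTPases that attack the vacuoles of intracellular microbes, were higher, with a median log2 fold change of 1.51. *Gbp4* (chr5:105115767-105139586) was at 0.398, 1.65, 1.17, 1.30 and 1.76 RPKM in control liver and at 1.92, 3.48 and 9.10 RPKM in pre-metastatic liver, where M5 was highest and no value overlapped (1.72 ± 0.36, adjusted p = 0.00238). *Gbp3* (1.58 ± 0.27, adjusted p = 0.000688) and *Gbp2* (1.51 ± 0.34, adjusted p = 0.00382) did not overlap between the groups either. *Gbp6* (2.83-fold, adjusted p = 0.0108) and *Gbp7* (1.09 ± 0.19, adjusted p = 0.000596) overlapped, and 70.7% of the windows of *Gbp6* recur in other genes of its cluster, mainly *Gm43302* and *Gbp10*.

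Of the 4 immunity-related GTPases, 3 were higher and *Irgm1* was not (0.57 ± 0.22, adjusted p = 0.0586). *Igtp* (Irgm3) was at 6.78, 16.9, 27.6, 19.8 and 23.4 RPKM in control liver and at 19.9, 34.8 and 118 RPKM in pre-metastatic liver, with M5 far above the next mouse at 47.7 RPKM (1.28 ± 0.35, adjusted p = 0.0119). *Irgm2* was at 4.85, 9.81, 12.1, 10.9 and 13.2 RPKM and at 10.9, 17.5 and 50.8 RPKM (1.21 ± 0.27, adjusted p = 0.00366). *Iigp1*, by RPKM the most abundant GTPase of the set in liver, was at 50.3, 67.9, 46.7, 73.0 and 67.1 RPKM and at 69.6, 91.6 and 160 RPKM, so that only the lowest tumor-bearing mouse, M6, came under the highest control (0.77 ± 0.14, adjusted p = 0.00118).

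Among the remaining genes, 5 of 6 were higher. *Ifi44*, an antiviral gene (chr3:151730922-151749959), was at 0.444, 0.839, 0.773, 1.45 and 1.67 RPKM in control liver and at 2.09, 3.47 and 6.31 RPKM in pre-metastatic liver. There was no overlap, and the log2 fold change was 1.90 ± 0.31 (adjusted p = 0.000389). *Xaf1*, which promotes apoptosis, rose by 1.52 ± 0.21 without overlap, the chaperone *Rtp4* by 1.08 ± 0.27 and the poly-ADP-ribose polymerase family gene *Parp14* by 0.75 ± 0.16. *Ifi35*, whose product pairs with NMI, was at 14.4 to 17.2 RPKM in the other control livers, at 12.98 RPKM in C1 and at 12.9, 16.6 and 23.0 RPKM, the smallest difference that passed (0.27 ± 0.08, adjusted p = 0.0176). It no longer passed without control mouse C1. *Usp18*, which removes ISG15 from proteins and dampens receptor signalling, did not pass (0.52 ± 0.21, adjusted p = 0.0767).

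*Oas1a*, another oligoadenylate synthetase (chr5:120896256-120907544), had a pattern of its own among the tumor-bearing mice, singled out after its values were seen. In pre-metastatic liver it had 671, 363, 366 and 223 counts in M1, M4, M6 and M8, and 2, 1, 0, 5 and 4 counts in M2, M5, M7, M10 and M12. The control livers had 74, 225, 57, 131 and 112 counts, at 0.472 to 1.963 RPKM. In RPKM, 5 tumor-bearing mice lay below every control (0.0426 or less) and the other 4 above every control (2.47 to 6.24). The primary tumors of all 9 mice expressed it, at 1128 to 4785 counts, those of the 5 mice with nearly none in liver included. These tumors grew from injected CT26 cells, and whether the reads came from that line or from cells of the mouse was not tested. The difference between the liver groups was 0.79 ± 1.22 (adjusted p = 0.661), with the largest standard error of the set. Its neighbour *Oas1g* went with it: 209, 146, 164 and 88 counts in M1, M4, M6 and M8, and 0, 1, 0, 1 and 4 in M2, M5, M7, M10 and M12. Over the 9 pre-metastatic livers and 17239 genes, *Oas1g* was the gene most like *Oas1a* (Pearson r = 0.998 on log2(RPKM + 0.1), a description), followed by *Prob1* (r = 0.923) and *Olfr56* (r = 0.913). *Oas1a* and *Oas1g* share 57.6% of the 50-base windows of *Oas1a*, so their counts may not be independent. *Oas1b*, in the same family, had 46 to 94 counts in every pre-metastatic liver, *Oas2* 148 to 622 and *Oas3* 89 to 337, and none of them was near 0 in those 5 mice. The mice with low *Oas1a* include both clock phases (M5 and M7 early, M2, M10 and M12 late). The cause was not tested.

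**Figure D2:**
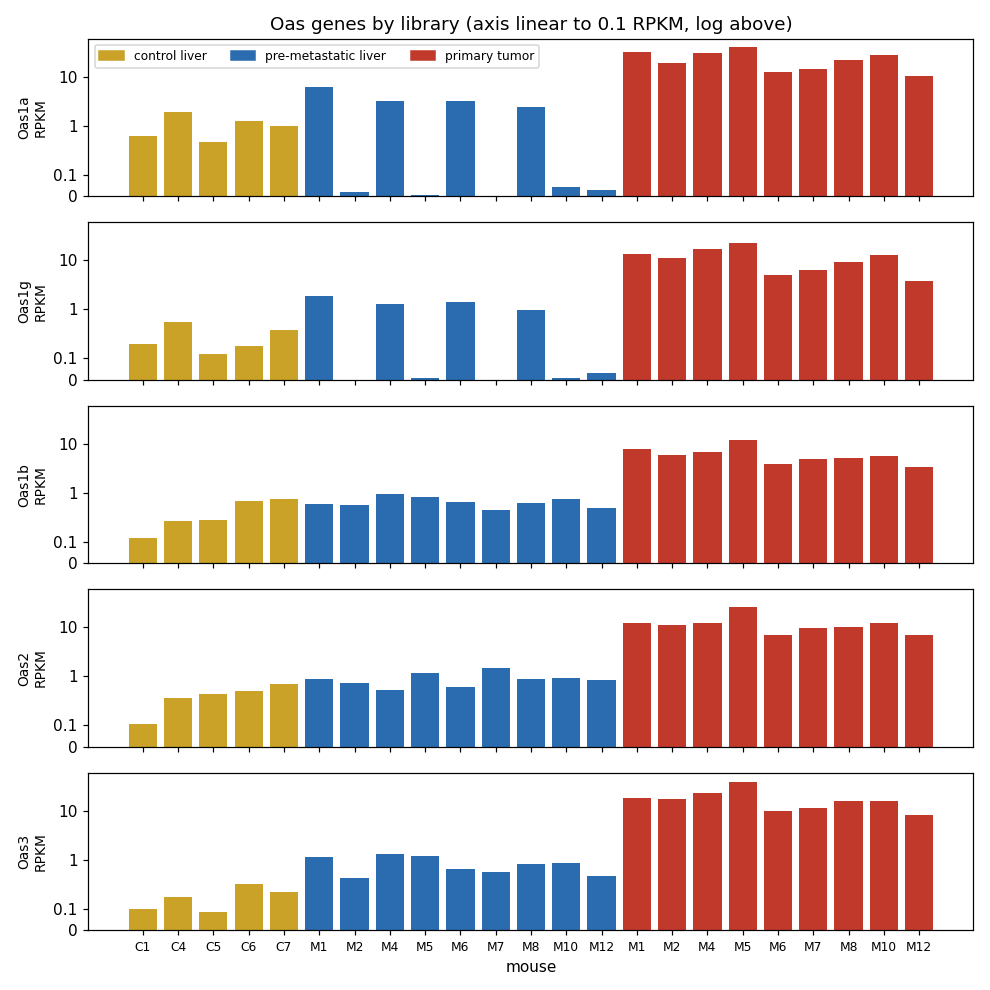
Bars give the RPKM of 5 oligoadenylate synthetase genes (rows) in each of the 23 libraries, named by mouse, on an axis that is linear up to 0.1 RPKM and logarithmic above. *Oas1a* and *Oas1g* are close to 0 in the livers of M2, M5, M7, M10 and M12 and present in every tumor, whereas *Oas1b*, *Oas2* and *Oas3* are present in every library.

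The interferons themselves were nearly absent from the livers. Of 17 interferon genes, none had enough counts to be tested between the livers: *Ifnb1* had 0 counts in all 14, and *Ifng* had 1, 1, 3, 5 and 0 counts in control liver and 0 to 10 in pre-metastatic liver, where M2 and M5 were highest at 10 each. Of the 6 receptor chains, 3 were higher and 0 lower. Both chains of the interferon gamma receptor rose without overlap, *Ifngr1* from 5.21 to 7.59 RPKM in control liver to 8.25 to 11.4 RPKM in pre-metastatic liver (0.65 ± 0.10, adjusted p = 0.000365) and *Ifngr2* from 6.32 to 11.2 RPKM to 11.3 to 16.1 RPKM (0.69 ± 0.13, adjusted p = 0.00141). The type I receptor chains did not pass: *Ifnar1* was at 6.29 to 7.97 and 5.63 to 8.09 RPKM (-0.01, adjusted p = 0.941) and *Ifnar2* at 19.1 to 24.6 and 17.5 to 22.4 RPKM (-0.15, adjusted p = 0.209). For the interferon lambda receptor, *Il10rb* passed (0.68 ± 0.14, adjusted p = 0.00189) and *Ifnlr1* did not (0.26, adjusted p = 0.740). Of the Janus kinases that the receptors use, *Tyk2* (0.39 ± 0.10, adjusted p = 0.0104) and *Jak2* (0.49 ± 0.14, adjusted p = 0.0145) passed and *Jak1* did not (0.15 ± 0.08, adjusted p = 0.176). With totals alone neither *Tyk2* (0.32) nor *Jak2* (0.42) passed.

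Of 8 feedback inhibitors, 2 were higher, *Socs3* (1.26 ± 0.21, adjusted p = 0.000492), which interleukin 6 also induces, and *Socs1* (1.14, adjusted p = 0.0369), and with totals alone 1 was, the call of *Socs1* being lost. Of 12 genes that lead to interferon production, 7 were higher and 1 lower (6 and 2 with totals alone). The smallest adjusted p were those of *Irf5* (1.04 ± 0.13, adjusted p = 6.62e-05) and *Tmem173*, which encodes STING (1.24 ± 0.21, adjusted p = 0.000555), and the fall was that of the RIG-I adaptor *Mavs* (-0.56 ± 0.12, adjusted p = 0.00337). Of 7 tested chemokines and cofactors of the interferon gamma response, 4 were higher, among them *Ciita*, the master regulator of MHC class II genes (2.15 ± 0.38, adjusted p = 0.000791), *Nlrc5*, its counterpart for MHC class I (0.99 ± 0.18, adjusted p = 0.00101), and *Gbp5* (1.68 ± 0.32, adjusted p = 0.00142). The chemokines had similar medians in control and pre-metastatic liver. These were 2.75 and 2.51 RPKM for *Cxcl9*, 1.56 and 1.89 RPKM for *Cxcl10*, and 0.556 and 0.525 RPKM for *Cxcl11*. Their highest pre-metastatic values were 30.7, 11.3 and 2.45 RPKM. Of 45 further interferon-induced genes, 27 were higher and 0 lower (25 and 0 with totals alone), with a median log2 fold change of 0.97, and *Uba7*, the activating enzyme for ISG15 (1.61 ± 0.15), and *Ifi204*, a DNA sensor (1.41 ± 0.17), had the smallest adjusted p.

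In the primary tumor the direction of many genes depended on the scaling, so both scalings are given. Against pre-metastatic liver, the median log2 fold change of all 17827 genes was 0.09 with TMM and 1.27 when counts were set against library totals alone, the scaling of RPKM. Counts in liver were concentrated in few genes: the top 10 of a library held 15.0% to 27.9% of its counts in pre-metastatic liver and 4.78% to 5.74% in the tumor. With TMM, 25 of the 39 genes were higher and 7 lower, where 43.8% of all genes were higher and 40.5% lower. With totals alone, 34 were higher and 1 lower, where 68.6% were higher and 20.9% lower. The set's median log2 fold change was 1.05 with TMM and 2.22 with totals. For 24 genes every tumor lay above every pre-metastatic liver in RPKM, as for 55.8% of all genes. With TMM, the early-phase mice alone gave 21 higher and 3 lower, and the late-phase mice 25 and 5. The paired fit, with the mouse as a replicate block, gave 26 higher and 9 lower, adding *Gbp6* to the rises and *Igtp* (-0.58) and *Irgm1* (-0.52) to the falls. With totals alone both were above 0, *Igtp* at 0.62 (adjusted p = 0.0970) and *Irgm1* at 0.74 (adjusted p = 0.0196, higher).

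The 5 largest rises were those of the effectors *Oasl2*, *Oas3*, *Mx1* and *Ifit2* and of the guanylate-binding protein *Gbp2*. *Oasl2* was at 1.37, 1.79 and 2.61 RPKM in pre-metastatic liver and at 21.0, 40.1 and 81.9 RPKM in the tumor, where M5 was highest and M6 lowest. The groups did not overlap, and the log2 fold change was 3.33 ± 0.24 (adjusted p = 6.76e-11). *Oas3* was at 8.27, 16.0 and 37.9 RPKM in the tumor (3.25 ± 0.28, adjusted p = 1.73e-09). *Gbp2* was at 3.25, 5.50 and 10.2 RPKM in pre-metastatic liver and at 39.7, 78.7 and 202 RPKM in the tumor (2.96 ± 0.29, adjusted p = 1.09e-08), *Mx1* at 0.250, 0.426 and 0.838 and at 3.01, 6.68 and 18.0 RPKM (2.83 ± 0.31, adjusted p = 5.41e-08). *Ifit2* reached 7.94, 15.3 and 28.9 RPKM in the tumor (2.60 ± 0.27, adjusted p = 2.87e-08). Of 15 effectors 13 were higher and 1 lower, and of 5 guanylate-binding proteins 4 were higher. Among the transcription factors *Irf8* (1.30 ± 0.18), *Irf1* (1.10 ± 0.20) and *Irf7* (0.77 ± 0.23) were higher. *Irf1* was at 30.4, 43.3 and 86.0 RPKM in the tumor, *Irf8* at 13.7, 21.8 and 29.1 RPKM and *Irf7* at 34.7, 77.2 and 166 RPKM, all above every liver.

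Of the immunity-related GTPases 0 of 4 were higher and 2 were lower with TMM. *Iigp1* was at 24.1, 35.6 and 103 RPKM in the tumor, against 69.6, 91.6 and 160 RPKM in pre-metastatic liver. In M2, M4 and M5 the tumors were at 96.9, 103 and 86.1 RPKM, inside the range of the livers, and in the other 6 mice they were below every pre-metastatic liver. Its log2 fold change was -2.07 ± 0.28 with TMM (adjusted p = 1.17e-06) and -0.89 with totals alone (adjusted p = 0.00745), and it was the single gene of the set that was lower in all 9 alternatives and without any single library. *Irgm2* was at 10.9, 20.1 and 46.3 RPKM in the tumor, against 10.9, 17.5 and 50.8 RPKM in pre-metastatic liver. With TMM it was lower (-0.98 ± 0.29, adjusted p = 0.00466) and with totals it was not (0.18, adjusted p = 0.599). *Mx2* (-0.84 ± 0.28), *Stat2* (-0.83 ± 0.24), *Irf9* (-0.72 ± 0.14), *Ifi35* (-0.63 ± 0.14) and *Ifih1* (-0.45 ± 0.19) were lower with TMM, and with totals all 5 had log2 fold changes above 0 (0.34, 0.36, 0.46, 0.54 and 0.72), those of *Irf9*, *Ifi35* and *Ifih1* past the threshold upward. In RPKM, *Stat2* was at 11.6, 18.1 and 46.5 in the tumor, with M2, M4 and M5 above every liver, and *Mx2* at 1.78, 3.85 and 11.7. *Irf9* was at 9.76, 14.1 and 21.1 RPKM in pre-metastatic liver and at 14.2, 18.3 and 29.3 RPKM in the tumor.

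**Figure D3:**
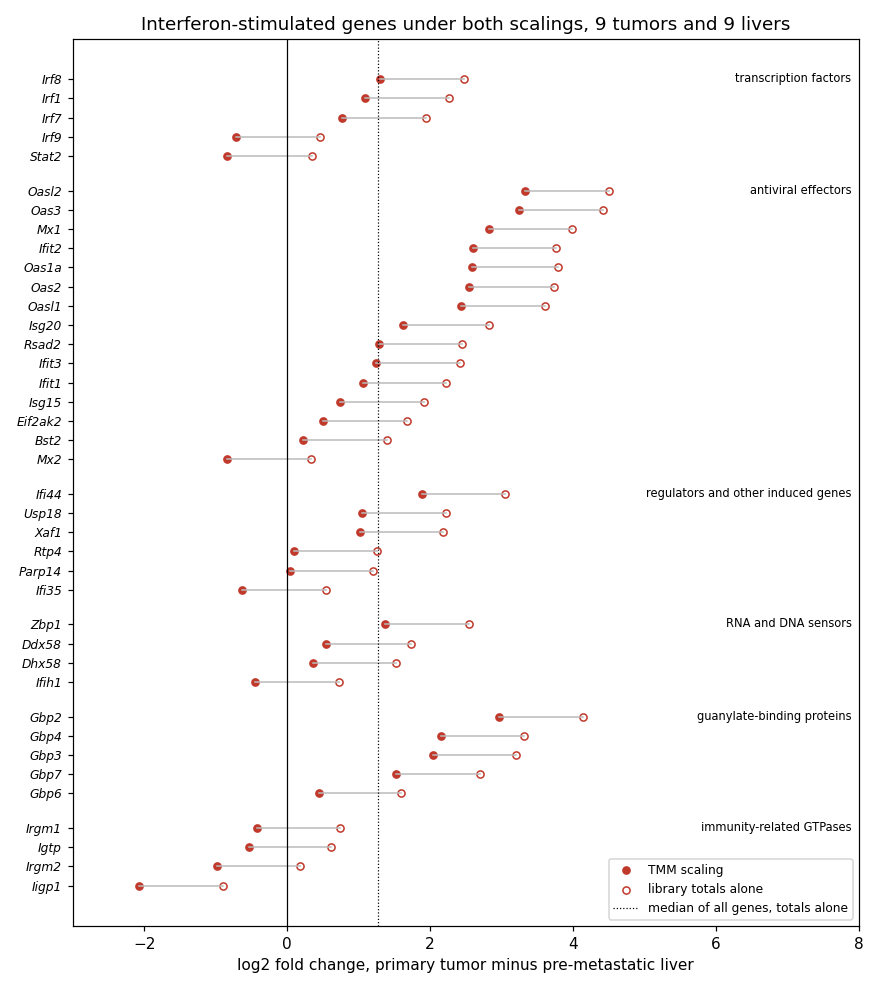
Log2 fold changes of the 39 genes between 9 primary tumors and 9 pre-metastatic livers (horizontal axis) with TMM scaling (filled) and with library totals alone (open), grouped by role. Totals move each gene to the right; the dotted line marks the median of all genes with totals, 1.27, and *Iigp1* is the single gene below 0 in both.

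*Ifi35*, *Ifih1*, *Irgm2* and *Iigp1* were higher in pre-metastatic than in control liver and lower in tumor than in pre-metastatic liver with TMM, and both comparisons use the same 9 livers. *Ifih1* was at 5.62, 9.02 and 18.3 RPKM in the tumor and *Ifi35* at 13.8, 23.6 and 36.6 RPKM, neither of them low in RPKM. The call of *Ifih1* was lost when any of 10 single libraries was left out.

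Against control liver, 30 of the 39 genes were higher and 3 lower in the tumor with TMM, where 44.2% of all 19320 genes were higher and 38.1% lower. With totals alone 36 were higher and 0 lower, where 66.6% were higher and 21.4% lower, and the median of all genes moved from 0.18 to 1.26. For 32 genes every tumor lay above every control liver, as for 56.4% of all genes. The largest rises were *Oas3* (5.57 ± 0.45), *Oasl2* (4.88 ± 0.39), *Gbp2* (4.50 ± 0.50), *Ifit2* (4.27 ± 0.37) and *Mx1* (4.12 ± 0.55), and these comparisons share the tumors with those above. *Iigp1* (-1.27 ± 0.35, adjusted p = 0.00304), *Stat2* (-0.72 ± 0.30, adjusted p = 0.0369) and *Irf9* (-0.45 ± 0.19, adjusted p = 0.0339) were lower with TMM. With totals *Iigp1* stayed below 0 but did not pass (-0.19, adjusted p = 0.622), *Stat2* was at 0.36 (adjusted p = 0.288) and *Irf9* passed upward at 0.62 (adjusted p = 0.00869).

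Interferon genes were countable in the tumors. *Ifng* had 45, 109, 155, 146, 17, 59, 64, 16 and 31 counts in the tumors of M1, M2, M4, M5, M6, M7, M8, M10 and M12. Each was above the highest liver. It met the minimum of counts only through the tumors, since the pre-metastatic livers had 0 to 10 counts. Its log2 fold change against pre-metastatic liver, 3.21 ± 0.64, is therefore given as a description. *Ifnb1* had 1 to 29 counts in the tumors, highest in M1 and M2, and was too low to be tested. The tumors with the most *Ifng* counts, M2, M4 and M5, also had the highest *Iigp1*, *Stat2* and *Gbp4* RPKM, a set of genes picked after the values were seen. The summed markers of T and NK cells were 29.8 to 154 RPKM in the tumors, highest in M12 and M5, those of leukocytes 146 to 279 RPKM, highest in M2 and M5, and those of monocytes 41.0 to 105 RPKM. Their part in the tumor values was not tested.

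**Figure D4:**
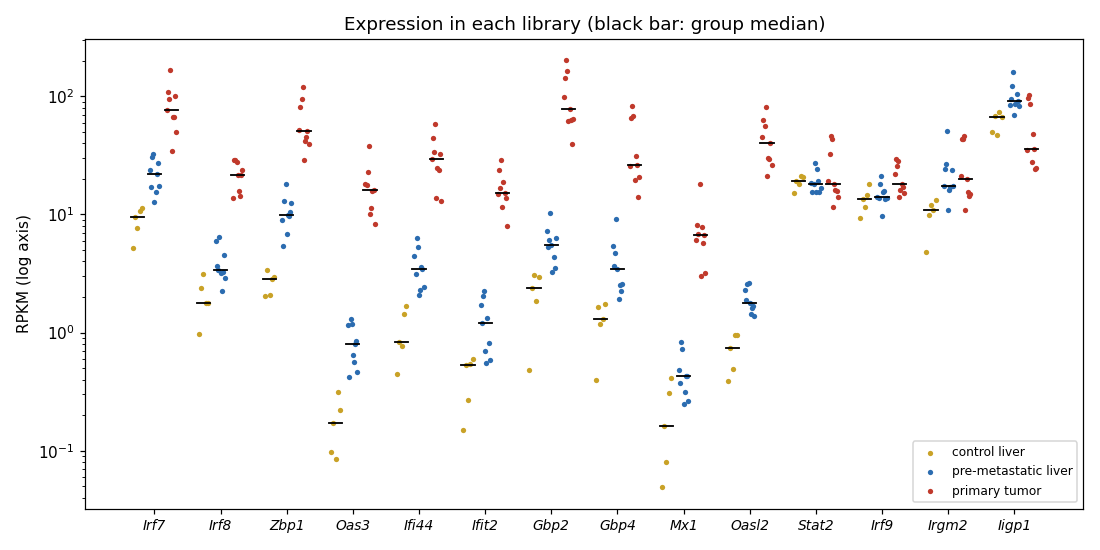
RPKM (vertical, log axis) of 14 interferon-stimulated genes in each control liver (n = 5), pre-metastatic liver (n = 9) and primary tumor (n = 9), with black bars at the group medians. *Zbp1*, *Oas3*, *Ifi44*, *Oasl2*, *Gbp2* and *Gbp4* step up from group to group, *Stat2* has medians of 19.2, 18.2 and 18.1 RPKM, and *Iigp1* has its lowest median, 35.6 RPKM, in the tumor.

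The set varied more between mice of a group than genes did in general. The median SD of log2(RPKM + 0.1) over the genes with at least 10 counts in every library was 0.491 in control liver (38 genes), against 0.223 over all genes, 0.482 in pre-metastatic liver (38 genes), against 0.293, and 0.653 in the tumor (39 genes), against 0.235. In the tumor all 39 were above the median of all genes, in pre-metastatic liver 36 of 38 and in control liver 34 of 38. In control liver the value was 0.296 without mouse C1. Among these genes, the widest spreads were those of *Gbp2*, *Igtp* and *Gbp4* in control liver, *Gbp6*, *Ifit1* and *Igtp* in pre-metastatic liver, and *Gbp4*, *Iigp1* and *Gbp6* in the tumor. The minimum of 10 counts left out *Mx1* in control liver and, in pre-metastatic liver, *Oas1a*, which ran there from 0 to 6.24 RPKM. *Gbp6* was at 0.910, 2.64 and 9.38 RPKM in pre-metastatic liver, a 10.3-fold range from M6 to M5, and at 4.87, 6.97 and 20.1 RPKM in the tumor. *Ifit1* was at 1.29, 3.69 and 8.04 RPKM in pre-metastatic liver, lowest in M6 and highest in M4. *Gbp4* was at 14.0, 26.3 and 82.4 RPKM in the tumor, with M2, M4 and M5 at 65.1, 82.4 and 67.6 RPKM and the other 6 at or under 31.3 RPKM. *Ifi35* varied least of the set in pre-metastatic liver (SD 0.218).

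The genes varied together. The mean Pearson correlation over all pairs of genes was 0.609 across the 9 pre-metastatic livers, 0.792 across the 9 tumors and 0.729 across the 5 control livers, against 0.139, 0.00960 and 0.0665 over all genes. Of 741 pairs in the tumor 740 were positive, and of 703 pairs in pre-metastatic liver 667 were. These values are descriptions, and the genes of a pair share their libraries. Control mouse C1 was the lowest of its group for 35 of the 39 genes, and the control correlation without it was not computed.

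In the livers, M5 had the highest value of 26 of the 39 genes and M4 of 8, and M6 had the lowest of 22. In the tumors, M5 was again highest, for 30 genes, followed by M4 with 8, and M6 was again lowest, for 22, followed by M12 with 12. How often each library ranked first or last over all genes was not counted. RPKM is set against library totals, and the share of counts in the top 10 genes differed between libraries. That share was 15.0% in the liver of M5, the lowest of its group, and 27.9% in that of M6, the highest. In their tumors it was 4.88% and 5.74%. As a single number per library, the median over the 39 genes of log2(RPKM + 0.1) minus the control liver median was 1.53 in the liver of M5, 1.26 in that of M4 and 0.04 in that of M6. It was 3.79, 3.28 and 1.86 in their tumors, and 3.38 in that of M2, whose liver was at 0.81. In the remaining 5 mice it lay between 0.32 and 0.84 in the liver and between 2.21 and 2.82 in the tumor. Control mouse C1 was at -0.74, the other controls between -0.19 and 0.20. The liver of M5 also had the highest leukocyte markers (57.8 RPKM), dendritic cell markers (2.55 RPKM) and T and NK cell markers (17.8 RPKM, against 5.59 RPKM or less in the other livers of tumor-bearing mice) and the lowest hepatocyte markers, and the liver of M6 the highest hepatocyte markers. The liver of C1 had the lowest leukocyte, macrophage and T and NK cell markers of the controls (18.7, 63.1 and 1.38 RPKM). The part of these cells in the order of the mice was not tested.

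**Figure D5:**
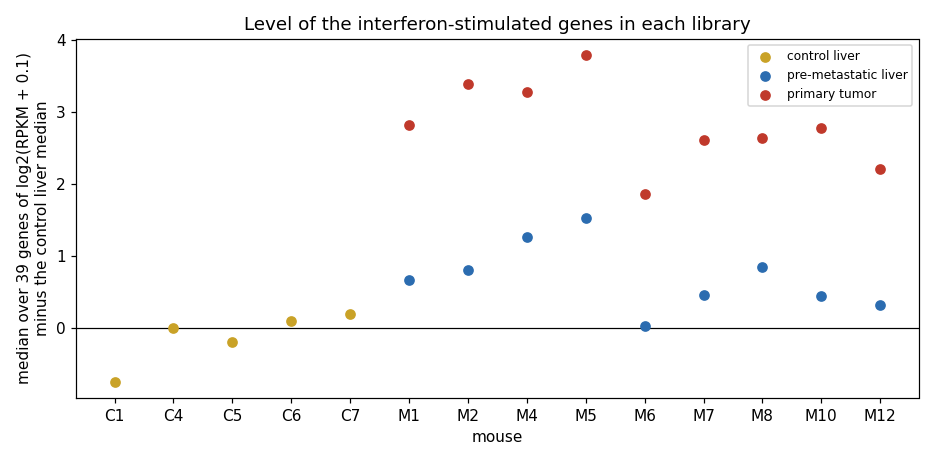
For each library, the median over the 39 genes of log2(RPKM + 0.1) minus the control liver median (vertical axis), with liver and tumor of a mouse above each other. The livers of tumor-bearing mice run from 0.04 (M6) to 1.53 (M5) and the tumors from 1.86 (M6) to 3.79 (M5).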

How the data were processed

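Libraries were poly(A) RNA-seq (NEBNext Ultra kit) of 23 tissues from 14 mice. The authors deposited whole-number read counts per gene, and the RPKM made from them with each gene's length and the library total. Per the labels and the submitters' processing notes, reads were aligned with HISAT2 (HISAT is also named) to mm10 and counted with HTSeq 0.6.0. RPKM recomputed from the counts differed from the deposited RPKM by at most 1.75e-06 of the value. Of the 48897 rows, 2 symbols stood on more than 1 row and were summed, giving 48895 genes.

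Each comparison was tested on counts with edgeR 4.0.16 (R 4.3.3): TMM scaling, glmQLFit and glmQLFTest without covariates on the groups compared, genes with at least 10 counts in as many libraries as the smaller group has, two-sided, with Benjamini-Hochberg adjustment over all genes tested and a threshold of 0.05. SE is the log2 fold change divided by the square root of F. The procedure was tested on simulated data. DESeq2 1.42.0, limma 3.58.1 on log2(RPKM + 1) and log2(RPKM + 0.1), other scalings, no filter, clock phases, the mouse as a replicate block and leaving out each library were alternatives. Liver and tumor of 1 mouse are paired by origin, and the correlation of their deviations from the group means was 0.0641 on average (-0.0462 to 0.171), against -0.00820 between mice. No 2 libraries agreed within counting noise. The totals of 44587556 to 79773163 counts set the depth.

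Values by library are given for the transcription factors, the 5 largest rises and falls per comparison, genes called in opposite directions and the 3 widest spreads per group. Pathway genes are named where among the 4 smallest p of their list, and receptors always. The members, the lists and these rules were chosen with earlier results of these data known. Promoter sequence is from RefSeq (GRCm38.p6, the assembly of mm10), matched by symbol. Shared sequence was counted in windows of 50 bases of the transcripts. Figures were drawn with matplotlib 3.10.9.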

Additional observations from a re-analysis of the deposited data

Results flagged for a closer look

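For each of the 39 genes in each of the 3 groups, the library farthest from the others was compared with Dixon's 95% limit, which chance alone passes in about 1 group in 20. Of 117 such sets of values, 8 passed. In control liver, mouse C1 was low for 6 genes, its gap to the next mouse taking a share of the group's range of 0.820 for *Usp18* (2.32 against 5.58 RPKM), 0.760 for *Parp14* (2.21 against 3.34), 0.758 for *Gbp3* (0.869 against 1.89), 0.750 for *Irgm1* (13.1 against 21.0), 0.713 for *Gbp2* (0.486 against 1.84) and 0.713 for *Gbp4* (0.398 against 1.17). In pre-metastatic liver, M5 was high for *Igtp* (118 against 47.7 RPKM, share 0.508). Among the tumors, M5 was high for *Oas2* (26.1 against 12.4 RPKM, share 0.567). The genes share their libraries, so these are not independent, and the cause was not tested.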

How the results depend on the processing

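Between pre-metastatic and control liver, 23 to 28 genes were higher in the alternatives, and 22 of the 26 calls were kept in every one. *Stat2* was at -0.0105 with limma at pseudocount 1 and at -0.0117 at 0.1. The direction of the tumor comparisons depends on scaling. Against pre-metastatic liver, the count of lower genes, 7 with TMM, was 1 with totals alone and with limma at either pseudocount, and 3 among early-phase mice. Totals, limma with pseudocount 1 and limma with 0.1 reversed *Ifi35* (0.54, 0.48, 0.50), *Ifih1* (0.72, 0.59, 0.65), *Irf9* (0.46, 0.41, 0.43), *Irgm2* (0.18, 0.11, 0.11), *Mx2* (0.34, 0.17, 0.19) and *Stat2* (0.36, 0.20, 0.21). Against control liver, the count of lower genes, 3 with TMM, was 5 with DESeq2, 1 with upper-quartile scaling, no low-count filter or early-phase mice, and 0 with totals and limma. The same 3 settings reversed *Irf9* (0.62, 0.57, 0.60) and *Stat2* (0.36, 0.19, 0.20). The cause was not tested beyond the scaling itself, which moves the median of all genes. With the mouse as a replicate block (paired), 26 genes were higher and 9 lower.

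Leaving out 1 library gave 23 (without C1) to 29 (without M10) higher and 0 to 0 lower genes between the livers, 25 to 26 higher and 6 to 8 lower against pre-metastatic liver, and 30 to 31 higher and 1 to 5 lower against control liver. Of the last, 5 were lower without M5, and 1 without any of C4, C6, C7, M6, M7, M8, M10 and M12. The median SD ranged from 0.296 to 0.564 in control liver, 0.415 to 0.510 in pre-metastatic liver and 0.546 to 0.698 in the tumor, and with pseudocount 1 that of pre-metastatic liver was 0.395. With 1 base of the ISRE core allowed to differ, 92.9% of matched genes held it, and 38.9% of all genes. Genes under about 10 counts per library, *Ifnb1* among them, could not be compared at this depth.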
